A study of Danio rerio with 20 samples.

Results

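Cardiomyocyte RNA of uninjured adult zebrafish hearts was compared between kit mutants and wild type, over the 10134 genes that reached 1 CPM (reads of a gene per 1000000 assigned reads) in at least 2 of the 4 libraries concerned, out of 14781 genes in the deposited matrix. The mutants carried kita(w34b2) and kitb(sa15356) together, and the wild-type fish neither allele. Fish of both genotypes were 4 to 6 months old and labelled untouched, so no apex had been removed. Each library was made from the cardiomyocytes isolated from 8 pooled ventricles, with 2 libraries per genotype. The series also holds 16 libraries from the same genotypes at 2, 5, 7 and 14 days after about 20% of the ventricle had been cut away at the apex (dpi), which entered the estimate of the spread and served as a second reading of the genotype gap.

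Kit is a receptor tyrosine kinase that dimerises when it binds Kit ligand and signals through Src-family kinases, phosphatidylinositol 3-kinase and the Ras-MAP kinase cascade. In vertebrates it is best known for the survival and migration of melanocytes and for blood progenitors, mast cells and germ cells. Zebrafish have a pair of receptor genes, kita and kitb, and a pair of ligand genes, kitlga and kitlgb, and loss of kita is known for the missing melanocytes of the sparse mutant.

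The 4 untouched libraries held 17.5 to 22.1 M reads and all carried a lane 8 label, at which depth 3 reads correspond to 0.136 to 0.171 CPM. Some sequencing sample numbers of lane 8 occur in both genotypes, and the labels name no sequencing run, so whether the genotypes shared 1 is unknown and its part in the results was not tested. The 2 untouched mutant libraries were nearly identical, with a mean chi-square per gene of 2.51 (read sampling alone gives about 1) against 23.4 for the wild-type pair, and the labels do not say whether they came from separate preparations. They were therefore averaged and counted as 1 sample, and the same was done for the mutant pairs at 2 and 7 dpi. Levels below are scaled CPM, that is CPM after division by a factor for each library, given for wild-type libraries 1 and 2 and then for mutant libraries 1 and 2. Differences are log2 values, mutant minus wild type, on the log2(scaled CPM + 1) scale, with the standard error of the limma fit after ±. Adjusted p are from limma with Benjamini-Hochberg adjustment over the 10134 genes, and a gene is called higher or lower where that p is under 0.05. Whether the libraries came from separate fish cohorts is not stated, so these p measure the spread between the libraries only. The averaged untouched mutant pair adds no spread of its own. That spread comes from the groups whose libraries were kept apart, most of them injured.

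The labelled cell type could be read from its markers. The ventricular and atrial myosin light chain gene myl7 stood at 24740 and 26960 scaled CPM against 24080 and 23010 and was not called (log2 -0.13 ± 0.30, adjusted p = 0.786). The summed level of the 30 cardiomyocyte genes tested ranged from 154700 to 169200 scaled CPM over the 4 libraries. With all 20 libraries kept apart 6 of them were higher and 7 lower. With the near-identical pairs averaged 0 were higher and 2 lower, or 6.67% called against 23.2% of all genes. The 2 were actc1b and tbx5a, and without wild-type library 2 neither was called, while other left-out libraries gave 0 or 1 higher and 1 or 2 lower. Other cell types were also present in all 4 libraries, as shown by the levels of their markers given beside the results below.

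In untouched hearts 2348 of the 10134 genes (23.2%) differed between the genotypes, 1118 (11.0%) higher and 1230 (12.1%) lower in mutants. Among them 513 of those higher and 532 of those lower differed by at least 1 on the log2 scale. Libraries of the genotypes did not overlap for 74.3% of the tested genes (35.3% higher and 39.0% lower), so absence of overlap alone said little here. The count was 4310 when all 20 libraries were kept apart, 1773 without wild-type library 1 and 1574 without wild-type library 2. Of the 10134 genes 171 had passed the filter through mutant libraries alone and 250 through wild-type libraries alone, and 4647 genes of the matrix were below it.

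The mutated receptors themselves were barely detected. kita had 17 and 26 reads in the wild-type libraries and 15 and 19 in the mutant ones, or 0.963 and 1.32 scaled CPM against 0.842 and 1.2, and the groups overlapped (log2 -0.08 ± 0.29, adjusted p = 0.872). kitb had 2 and 4 reads against 2 and 2, and was not tested. A transcript level does not show whether the alleles are functional, so these values are no check of the genotype labels. The ligand gene kitlga stood at 7.14 and 8.09 scaled CPM against 9.26 and 9.46, a little higher in both mutant libraries but not called (log2 0.27 ± 0.23, adjusted p = 0.434), and kitlgb had at most 1 read in any of the 4.

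Downstream of the receptor, 33 of 38 genes of the kit signal relay were not called, 3 were higher and 2 lower, a share of 13.2% where all genes gave 23.2%. The fall was clearest for etv5b, an ETS factor induced by MAP kinase signalling, at 87.8 and 89.6 scaled CPM against 47.8 and 48.1 (log2 -0.87 ± 0.15, adjusted p = 0.0016). The MAP kinase feedback inhibitor spry4 was at 214 and 300.4 scaled CPM against 143 and 156 (log2 -0.76 ± 0.19, adjusted p = 0.0142), a call that was lost without wild-type library 2. The 3 higher members were the Src-family kinase lyn at 9.18 and 7.74 scaled CPM against 48.5 and 45.1 (log2 2.34 ± 0.44, adjusted p = 0.00247), the phosphatase ptpn6 at 12.2 and 9.57 scaled CPM against 34.6 and 35.8 and the ubiquitin ligase cbl at 33.8 and 34.2 scaled CPM against 68.2 and 67.8. Of these lyn is a kinase of myeloid and B cells and ptpn6 a phosphatase of blood cells. The leukocyte genes described next were higher in the same libraries, and their part in these values was not tested. Without wild-type library 2 neither ptpn6 nor cbl was called, and without library 1 cbl was not called, while 5 members were higher without either wild-type library of 2 dpi or mutant library 1 of 14 dpi, and 4 lower without untouched mutant library 1.

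Pigment cell genes gave little signal in these preparations. Of 20 in the matrix 13 were below the filter, among them mitfa, tyr, dct and tyrp1b, and 1 of 7 tested was higher and 1 lower. The higher one, csf1ra, is shared with macrophages (11.05 and 12.6 scaled CPM against 47.8 and 44.8, log2 1.88 ± 0.55, adjusted p = 0.0259), and the lower one, sox10, is shared with other neural crest derivatives (6.8 and 5.7 scaled CPM against 3.25 and 3.47, log2 -0.73 ± 0.24, adjusted p = 0.0467). Both calls were lost when either wild-type library was left out. Over the 32 other settings tried, the call of sox10 was lost in 15 and that of csf1ra in 3.

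Among genes with an approved-looking symbol, most of the 12 leading rises were in genes of neutrophils. The others, m17, irg1, coch and grn1, are given further below. The collagenase gene mmp13a was at 3.17 and 3.36 scaled CPM against 232 and 244, a 72.8-fold difference of means (log2 5.81 ± 0.63, adjusted p = 8.97e-05). The gelatinase gene mmp9 was at 4.02 and 5.55 scaled CPM against 165 and 162 (log2 4.84 ± 0.61, adjusted p = 0.000235). The near-identical mutant libraries, counted as 1 sample, stood far above both wild-type libraries for each. Myeloperoxidase, the granule enzyme encoded by mpx, was at 2.38 and 1.88 scaled CPM against 61.4 and 63.4 (log2 4.34 ± 0.50, adjusted p = 0.000134). Lysozyme, encoded by lyz, was at 5.67 and 4.38 scaled CPM against 120.4 and 112 (log2 4.29 ± 0.51, adjusted p = 0.000156), and the chemotactic factor gene lect2l at 4.02 and 3.46 scaled CPM against 92.7 and 86.4 (log2 4.26 ± 0.51, adjusted p = 0.000178). These are transcripts of neutrophil granules and secretions, and again the mutant pair, as 1 sample, stood far above both wild-type libraries. The oxidase subunit gene cybb was at 9.69 and 11.4 scaled CPM against 191 and 189 (log2 4.05 ± 0.54, adjusted p = 0.000322), and its partner cyba at 3.8 and 2.85 scaled CPM against 17.2 and 18.6 (log2 2.14 ± 0.24, adjusted p = 9.85e-05). The sphingosine 1-phosphate receptor gene s1pr4, known from blood cells, was at 1.3 and 0.713 scaled CPM against 41.9 and 45.9 (log2 4.50 ± 0.31, adjusted p = 6.71e-06). The lectin-like receptor gene illr4 had 6 and 5 reads in wild type against 534 and 459 in mutants (log2 4.55 ± 0.59, adjusted p = 0.000279). This gene had passed the filter through mutant libraries alone.

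Of 20 neutrophil genes in the matrix, npsn was below the filter, 3 had passed it through mutant libraries alone and each of the 16 others was higher. The median of the 19 tested was 3.19, where all genes had a median of -0.03 and 11.0% of them were higher. The summed level was 520 and 471 scaled CPM in wild type against 2382 and 2349 in mutants. In bulk RNA a larger number of neutrophils and more RNA per neutrophil cannot be told apart. No left-out library and no other setting changed the 19 calls in this direction. Leaving out either untouched mutant library kept its near-identical partner, and every other setting used the same pair. These settings therefore cannot show whether the rise is particular to that mutant pair.

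**Figure D1:**
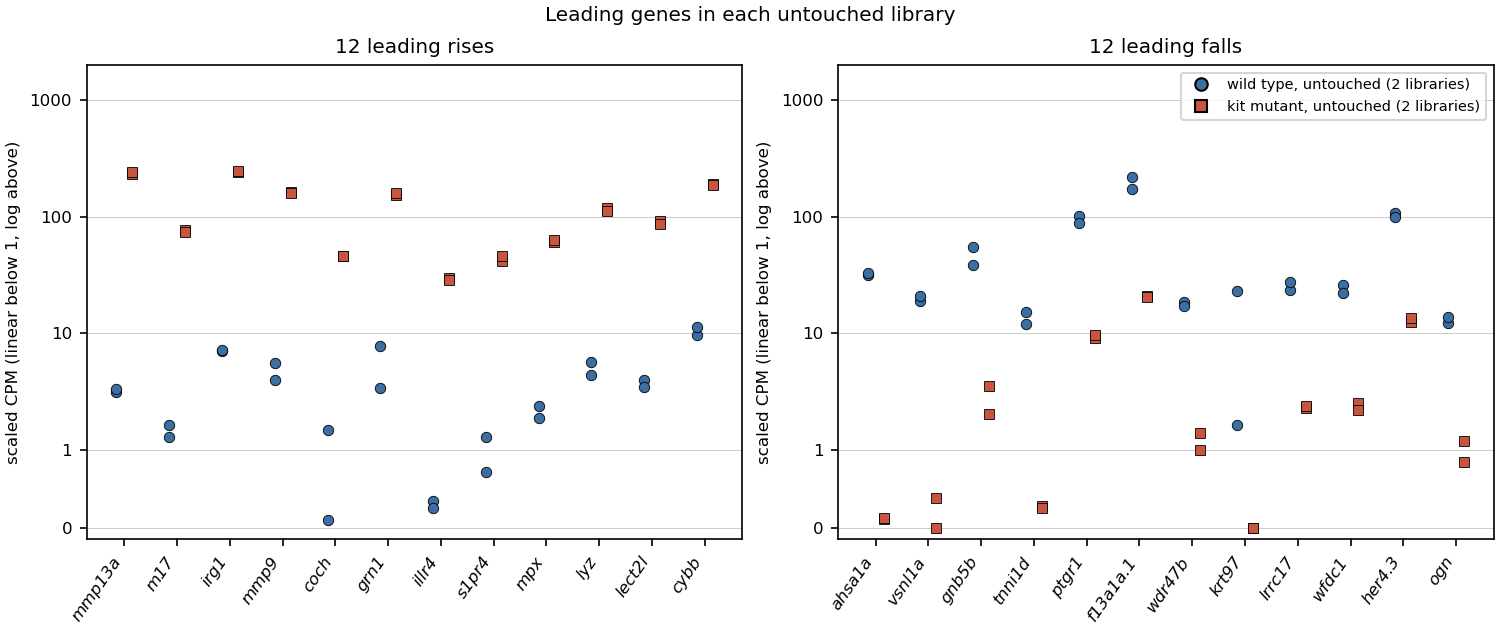
Scaled CPM in each untouched library for the 12 leading rises and the 12 leading falls, with circles for wild type and squares for mutants on an axis that is linear below 1 and logarithmic above. The 2 libraries of a genotype lie close together except for krt97, coch and grn1 in wild type, and the mutant values of krt97 and of vsnl1a in 1 library are at 0.

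Genes shared by leukocytes followed. The GTPase gene rac2 was at 6.18 and 4.22 scaled CPM against 44 and 48.5 (log2 2.95 ± 0.38, adjusted p = 0.000276), the actin bundling gene lcp1 at 20.9 and 18.6 scaled CPM against 80.7 and 77.3 (log2 1.95 ± 0.34, adjusted p = 0.00158) and the actin regulator coro1a at 29.4 and 28.8 scaled CPM against 150.5 and 149.9 (log2 2.33 ± 0.42, adjusted p = 0.00211). The myeloid transcription factor spi1b was at 7.54 and 6.82 scaled CPM against 38.4 and 41.2 (log2 2.32 ± 0.42, adjusted p = 0.00211). Among the pan-leukocyte genes 1 had passed the filter through mutant libraries alone. Of the 17 others 14 were higher, where 11.0% of all genes were higher. Of 18 tested pan-leukocyte genes 15 were higher and 0 lower, with a median of 1.73, and without wild-type library 2 the count was 9.

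Macrophage genes were split. The perforin-like gene mpeg1.2 was at 24.2 and 28.7 scaled CPM against 66.5 and 65.3 (log2 1.29 ± 0.21, adjusted p = 0.00121), while its close copy mpeg1.1 was at 7.2 and 6.06 scaled CPM against 8.36 and 8.71 and was not called. The macrophage protein gene mfap4 was at 4.82 and 3.97 scaled CPM against 50.6 and 50.1 (log2 3.25 ± 0.62, adjusted p = 0.00271) and the granulin gene grn1 at 7.76 and 3.41 scaled CPM against 155 and 160.2 (log2 4.67 ± 0.89, adjusted p = 0.00277). Heme oxygenase, hmox1a, was at 47.3 and 52.7 scaled CPM against 149 and 147 (log2 1.54 ± 0.29, adjusted p = 0.00281). The apolipoprotein gene apoeb went the other way, at 12.3 and 18.2 scaled CPM against 6.17 and 7.45 (log2 -1.03 ± 0.27, adjusted p = 0.0146), a call that was lost without wild-type library 2. In all, 11 of 20 tested macrophage genes were higher and 1 lower, with a median of 0.99, and 7 were higher and 0 lower without wild-type library 2, and 2 lower without either wild-type library of 2 dpi. Of the 20, 1 had passed the filter through mutant libraries alone, and among the 19 others 10 were higher and 1 lower. All tested genes gave 11.0% higher and 12.1% lower. Reads of the close copies mpeg1.1 and mpeg1.2 may have been split between them in counting.

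Lymphocyte genes were measured in smaller numbers. The B-cell receptor regulator cd22 was at 0.963 and 1.07 scaled CPM against 20.1 and 20.1 (log2 3.39 ± 0.44, adjusted p = 0.000289) and the adaptor gene blnk at 2.04 and 2.29 scaled CPM against 15.3 and 13.2 (log2 2.27 ± 0.35, adjusted p = 0.000789). Of 5 tested B lymphocyte genes 3 were higher, and of 11 T and NK lymphocyte genes 2, while 0 of either were lower. For the T and NK genes that is 18.2% called, all higher, where 23.2% of all genes were called and 11.0% were higher. Of the 5 B lymphocyte genes cd22 had passed the filter through mutant libraries alone and 1 other through wild-type ones alone, as had 1 T and NK gene each way. With 1 library left out the T and NK count fell to 1 at the least, without wild-type library 2, and 1 B lymphocyte gene was lower without wild-type library 1 or mutant library 2.

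Many inflammatory mediators were higher beside the leukocyte genes. Cyclooxygenase 2, ptgs2a, was at 21.1 and 24.4 scaled CPM against 118 and 121 (log2 2.35 ± 0.20, adjusted p = 2.86e-05), and the flagellin receptor gene tlr5b at 18.7 and 21.6 scaled CPM against 91.7 and 88.3 (log2 2.11 ± 0.19, adjusted p = 2.9e-05). The cytokine gene il6 was at 1.59 and 1.53 scaled CPM against 28.2 and 29.9 (log2 3.56 ± 0.44, adjusted p = 0.000222). A granulocyte colony-stimulating factor gene, csf3b, was at 0.397 and 1.17 scaled CPM against 16.6 and 16.7 (log2 3.34 ± 0.42, adjusted p = 0.000228), and its receptor csf3r, a neutrophil gene, was higher as well. The chemokine gene cxcl12b, made mainly by stromal and endothelial cells, was at 116 and 136 scaled CPM against 428 and 424 (log2 1.75 ± 0.20, adjusted p = 0.000117). The interleukin-6-family cytokine m17 was at 1.3 and 1.63 scaled CPM against 77.5 and 74.9 (log2 4.97 ± 0.85, adjusted p = 0.00155), and irg1, the mitochondrial enzyme that makes itaconate in activated macrophages, at 7.08 and 7.18 scaled CPM against 242 and 247 (log2 4.92 ± 0.98, adjusted p = 0.00359). Chosen after their values were seen, il1b stood at 81 and 68.7 scaled CPM against 704 and 696 (log2 3.21 ± 0.83, adjusted p = 0.0147, lost without wild-type library 2) and tnfa at 0.793 and 1.32 scaled CPM against 8.92 and 7.83 (adjusted p = 0.00196).

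Of 44 tested mediators 22 were higher and 3 lower (against 11.0% and 12.1% of all genes), with a median of 1.06. Another 15 were below the filter, among them nos2a and il10. Of the 44, 2 had passed it through mutant libraries alone, and among the 42 others 21 were higher and 3 lower. The 3 lower ones were tgfb1a, tgfb2 and ptgs1, and without wild-type library 2 none of them was called, nor more than 1 without wild-type library 1, without a 7 dpi wild-type library or without a mutant library of 2 or 5 dpi. The part of the leukocyte genes in the mediator values was not tested.

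Protein degradation differed in its immune branch. Beta-2-microglobulin, b2m, the light chain of class I molecules, was at 288 and 264 scaled CPM against 616 and 578 (log2 1.11 ± 0.14, adjusted p = 0.000234), and the peptide-trimming enzyme erap1b at 4.59 and 5.75 scaled CPM against 24 and 20.6 (log2 1.93 ± 0.25, adjusted p = 0.000302). The immunoproteasome subunit psmb12 was at 2.38 and 2.04 scaled CPM against 12.4 and 10.3 (log2 1.95 ± 0.28, adjusted p = 0.000501) and the activator subunit psme1 at 44.9 and 49.99 scaled CPM against 95.1 and 97.6 (log2 1.01 ± 0.16, adjusted p = 0.000842). Of 16 antigen presentation genes 10 were higher and 0 lower, where 11.0% of all genes were higher. Of 42 proteasome genes 6 were higher and 0 lower, 5 of them immunoproteasome or related subunits (psmb12, psmb8a, psmb9a, psmb10 and psma6l), and the median of 0.07 was near that of all genes. Of the 42, 14.3% were called, all higher, where 23.2% of all genes were called and 11.0% were higher.

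Some lysosomal genes were higher as well. The cholesterol exporter gene npc1 was at 75.9 and 85.4 scaled CPM against 182 and 181 (log2 1.16 ± 0.15, adjusted p = 0.000275) and the proton pump subunit atp6v1aa at 25.7 and 25.9 scaled CPM against 63.9 and 57.4 (adjusted p = 0.00118). The granulin gene grna was at 21.7 and 22.3 scaled CPM against 130.5 and 133 (log2 2.53 ± 0.42, adjusted p = 0.00136), and laptm4b was lower at 74.1 and 64.2 scaled CPM against 37.4 and 35.3 (log2 -0.90 ± 0.14, adjusted p = 0.000747). Of 53 tested, 19 were higher, 2 lower and 32 not called (39.6% called, against 23.2% of all genes), with a median of 0.36.

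Clotting and matrix-degrading genes moved in both directions. Coagulation factor V, f5, was at 7.71 and 7.89 scaled CPM against 84.2 and 90.9 (log2 3.33 ± 0.41, adjusted p = 0.000192). The annexin gene anxa2a, one of the abundant transcripts, was at 1357 and 1223 scaled CPM against 3956 and 4025 (log2 1.63 ± 0.20, adjusted p = 0.000228). Tissue factor, f3b, which starts clotting, was lower at 484 and 488 scaled CPM against 196 and 192 (log2 -1.32 ± 0.22, adjusted p = 0.00143). The factor XIII subunit gene f13a1a.1, which crosslinks fibrin, was among the leading falls at 220.5 and 174 scaled CPM against 20.9 and 20.7 (log2 -3.17 ± 0.61, adjusted p = 0.00292). Of 24 complement and coagulation genes 11 were higher and these 2 were lower, and 7 were higher without wild-type library 2. Of the 24, 2 had passed the filter through mutant libraries alone, and among the 22 others 10 were higher and 2 lower. All tested genes gave 11.0% higher and 12.1% lower. Among 16 matrix proteases and their inhibitors 6 were higher and 1 lower, the inhibitor timp2b at 43.1 and 32.4 scaled CPM against 281 and 280.1 (log2 2.88 ± 0.28, adjusted p = 4.46e-05) and the membrane protease mmp14a, the lower one, at 55.1 and 49.7 scaled CPM against 29.5 and 30.4 (log2 -0.79 ± 0.16, adjusted p = 0.00398).

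The largest group of falls was in DNA replication. Thymidine kinase, tk1, was at 8.5 and 9.72 scaled CPM against 1.68 and 1.7 (log2 -1.91 ± 0.19, adjusted p = 5.74e-05), and the ribonucleotide reductase subunit rrm2 at 20.1 and 20.8 scaled CPM against 5.16 and 5.87 (log2 -1.72 ± 0.18, adjusted p = 7.63e-05). The replicative helicase subunits mcm6 and mcm3 were at 41.2 and 62.2 scaled CPM against 8.36 and 10.3 (log2 -2.32 ± 0.26, adjusted p = 9.85e-05) and at 20.9 and 27.4 scaled CPM against 4.71 and 6.44 (log2 -1.92 ± 0.22, adjusted p = 0.000118). The mutant pair, counted as 1 sample, lay below both wild-type libraries for these genes, with wild-type library 2 the higher for both helicase subunits. The chromatin remodeller hells was at 11.11 and 19.6 scaled CPM against 2.64 and 1.51 (log2 -2.36 ± 0.26, adjusted p = 0.000108), and its partner cdca7a at 9.52 and 13 scaled CPM against 0.954 and 1.39 (log2 -2.48 ± 0.29, adjusted p = 0.000131).

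Of 71 tested replication and S phase genes 55 were lower and 0 higher, with a median of -1.19, where 12.1% of all genes were lower. Of these 71, 12 had passed the filter through wild-type libraries alone, and among the 59 others 44 were lower. The summed level was 1098 and 1400 scaled CPM in wild type against 522 and 522 in mutants. The lowest count of lower members with a library left out was 45, without wild-type library 2.

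Mitotic genes shared the direction with a smaller median. The cell-cycle transcription factor mybl2b was at 6.35 and 6.72 scaled CPM against 1.07 and 1.83 (log2 -1.62 ± 0.19, adjusted p = 0.000176), the condensin subunit smc2 at 11.4 and 13.4 scaled CPM against 3.09 and 3.41 (log2 -1.65 ± 0.21, adjusted p = 0.000228) and topoisomerase top2a at 10.03 and 13.2 scaled CPM against 4.21 and 5.11 (log2 -1.14 ± 0.19, adjusted p = 0.00125). Of 55 tested, 29 were lower and 1 higher, with a median of -0.76, and without wild-type library 2 the number lower was 19. Through wild-type libraries alone 17 of the 55 had passed the filter, and of the 36 that passed through both genotypes 16 were lower. The 1 higher member was the phosphatase cdc25b. Over all tested genes 12.1% were lower.

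Of the arrest and stress genes of the p53 list 21.9% were called, close to the 23.2% of all genes, so the members are given singly. The cyclin-dependent kinase inhibitor cdkn1a was at 318 and 319 scaled CPM against 96.5 and 102 (log2 -1.67 ± 0.22, adjusted p = 0.000296), sesn3, a nutrient-stress gene, at 152 and 162 scaled CPM against 52.5 and 46.3 (log2 -1.64 ± 0.14, adjusted p = 2.9e-05) and the antiproliferative gene btg2 at 999 and 1048 scaled CPM against 569 and 575 (log2 -0.84 ± 0.16, adjusted p = 0.00294). Of 32 tested 4 were lower and 3 higher, and the number higher was 0 without wild-type library 2, 6 without mutant library 1 and 5 without either mutant library of 14 dpi. The number lower was 4 or more in every setting tried.

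Many genes of ribosome assembly were higher in mutants. The nucleolar factors noc2l and bop1 were at 22.4 and 19.3 scaled CPM against 54.6 and 55.2 (log2 1.36 ± 0.17, adjusted p = 0.000249) and at 19.9 and 19.4 scaled CPM against 39.4 and 36.9 (log2 0.92 ± 0.14, adjusted p = 0.00066). Nucleolin, ncl, was at 423 and 406 scaled CPM against 717 and 698 (log2 0.77 ± 0.15, adjusted p = 0.00294), and fibrillarin, fbl, the methyltransferase of ribosomal RNA, at 64 and 61.1 scaled CPM against 103 and 108 (log2 0.75 ± 0.15, adjusted p = 0.00313). Of 60 tested ribosome biogenesis genes 27 were higher and 0 lower, with a median of 0.50, and 17 were higher without wild-type library 2. All tested genes gave 11.0% higher and 12.1% lower. Of 79 ribosomal proteins of the cytosol 1 was higher and 0 lower, with a median of 0.13. The number higher was 0 to 3 with 1 library left out, 8 with all 20 libraries kept apart and 27 with only the 4 untouched libraries kept apart. The difference between the lists was not tested. Of translation factors 13.9% were called, below the 23.2% of all genes. Of 65 translation factors 7 were higher and 2 lower, 4 and 1 without wild-type library 1, 6 and 0 without wild-type library 2, and 11 were higher without either mutant library of 14 dpi.

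**Figure D2:**
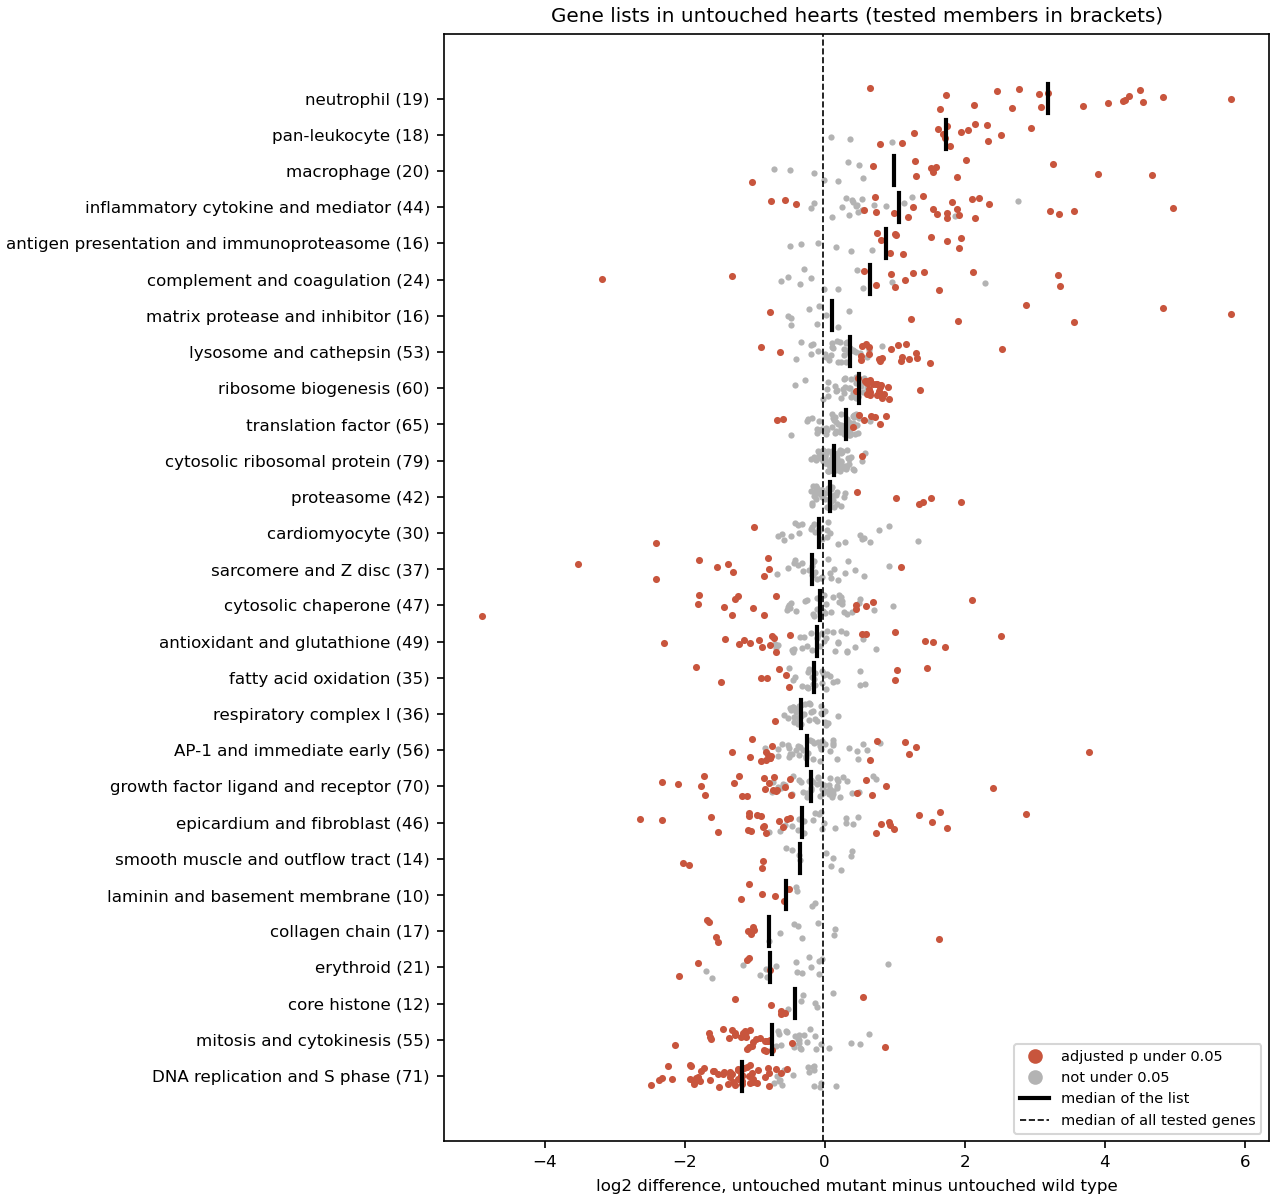
Log2 difference, mutant minus wild type in untouched hearts, of each tested member of 28 gene lists, with called members in colour, a bar at each list's median and a dashed line at the median of all tested genes. Leukocyte lists lie to the right, with the neutrophil median at 3.19, and replication genes to the left at -1.19, while cardiomyocyte and ribosomal protein lists lie near 0.

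Red cell genes were lower as a level and only partly by the test. The anion exchanger of the red cell, slc4a1a, was at 111 and 96.7 scaled CPM against 28.1 and 29.8 (log2 -1.81 ± 0.38, adjusted p = 0.00446), and carbonic anhydrase, cahz, at 344 and 293 scaled CPM against 75 and 73.3 (log2 -2.08 ± 0.56, adjusted p = 0.0177, lost without wild-type library 1). The adult globin gene hbaa1 was at 6478 and 6841 scaled CPM against 2026 and 2069 without being called (log2 -1.70 ± 0.59, adjusted p = 0.0551). The heme synthesis enzyme alas2 was at 413 and 345 scaled CPM against 121 and 126, also not called (log2 -1.61 ± 0.68, adjusted p = 0.106). Both mutant libraries were below both wild-type libraries for all of these, as they were for 39.0% of all tested genes. Of 21 tested 5 were lower and 0 higher. That is 23.8%, all lower, where 12.1% of all genes were lower. The count fell without either untouched wild-type library and rose without either wild-type library of 2 dpi. The summed level, most of it from hbaa1, was 8319 and 8501 scaled CPM in wild type against 2938 and 2948 in mutants. Reads of near-identical globin copies may have been split in counting.

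Several genes of the structural matrix were lower in mutants. The fibrillar collagen genes col1a1a and col1a2 were at 875 and 989 scaled CPM against 436 and 457 (log2 -1.06 ± 0.27, adjusted p = 0.0145) and at 732 and 793 scaled CPM against 347 and 363 (log2 -1.10 ± 0.25, adjusted p = 0.00739), the first of which was not called without wild-type library 2. Of 17 tested collagen chain genes 8 were lower and 1 higher (52.9% called, against 23.2% of all genes). Of the 17, 3 had passed the filter through wild-type libraries alone and 1 through mutant ones alone, and among the 13 others 6 were lower and 0 higher. The higher one, col11a2, which had passed through the mutant libraries alone, was at 0.227 and 0.407 scaled CPM against 3.2 and 2.97 (log2 1.64 ± 0.29, adjusted p = 0.00182). The laminin chain gene lama5 was at 272 and 264 scaled CPM against 116 and 117 (log2 -1.19 ± 0.15, adjusted p = 0.000228), and the collagen-binding protein gene sparc at 840.4 and 821 scaled CPM against 401 and 386 (log2 -1.08 ± 0.20, adjusted p = 0.0027). Of 10 laminin and basement membrane genes 6 were lower, 0 higher and 4 not called, where 12.1% of all genes were lower. Elastin, elna, which gives the outflow tract its recoil, was at 167 and 138 scaled CPM against 37.6 and 40.01 (log2 -1.94 ± 0.21, adjusted p = 9.85e-05). Of 14 smooth muscle and outflow tract genes 4 were lower and 10 not called. That is 28.6%, all lower, against 12.1% lower of all genes, and fewer were lower without wild-type library 2.

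Genes of epicardium and fibroblasts did not move together, and 58.7% of those tested were called, against 23.2% of all genes. The microfibril gene mfap2 was at 14.2 and 17.5 scaled CPM against 1.91 and 1.45 (log2 -2.65 ± 0.18, adjusted p = 6.71e-06) and periostin, postnb, at 177 and 177 scaled CPM against 58.7 and 54.8 (log2 -1.62 ± 0.21, adjusted p = 0.000296). The epicardial transcription factors tbx18 and tcf21 were among the lower members (tcf21 not without wild-type library 2), while wt1b was higher at 5.44 and 4.53 scaled CPM against 17.8 and 17.4 (log2 1.64 ± 0.23, adjusted p = 0.000498). Of 46 tested 17 were lower and 10 higher, and 11 were lower without wild-type library 1. Several of the leading falls are also secreted matrix genes: the proteoglycan ogn was at 12.3 and 13.8 scaled CPM against 0.842 and 1.2 (log2 -2.80 ± 0.27, adjusted p = 4.46e-05), the leucine-rich repeat gene lrrc17 at 23.5 and 27.5 scaled CPM against 2.3 and 2.4 (log2 -2.98 ± 0.17, adjusted p = 3.76e-06) and wfdc1 at 26.2 and 22.3 scaled CPM against 2.52 and 2.21 (log2 -2.90 ± 0.24, adjusted p = 1.89e-05).

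Among growth signals more members were lower than higher. The Wnt ligand gene wnt11r was at 27.7 and 29.4 scaled CPM against 7.58 and 8.27 (log2 -1.73 ± 0.17, adjusted p = 4.46e-05) and the heparin-binding factor mdkb at 24.1 and 25.2 scaled CPM against 3.42 and 4.86 (log2 -2.32 ± 0.28, adjusted p = 0.000165). The EGF-family ligand hbegfb was higher at 6.29 and 6.41 scaled CPM against 37.6 and 37.9 (log2 2.40 ± 0.34, adjusted p = 0.000522), as was igf2b at 122 and 119.8 scaled CPM against 224 and 223 (log2 0.88 ± 0.12, adjusted p = 0.000443). Of 70 tested ligands and receptors 19 were lower and 5 higher (34.3% called, against 23.2% of all genes). Of the 70, 5 had passed the filter through wild-type libraries alone. The Notch target her4.3 was at 108 and 100.4 scaled CPM against 12.5 and 13.6 (log2 -2.90 ± 0.49, adjusted p = 0.00133), but it belongs to a tandem family whose reads may have been shared between copies in counting.

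Chaperone genes moved in both directions. The stress-inducible HSP90 gene hsp90aa1.1 was at 7000 and 7503 scaled CPM against 2058 and 2074 (log2 -1.81 ± 0.28, adjusted p = 0.000919). The myosin chaperone unc45b, which works with HSP90, was at 1085 and 1312 scaled CPM against 345 and 343 (log2 -1.79 ± 0.26, adjusted p = 0.000597), and the co-chaperone fkbp4 at 237 and 226 scaled CPM against 83.3 and 86.8 (log2 -1.43 ± 0.14, adjusted p = 5.74e-05). Chosen after their values were seen for their level, bag3 was at 8954 and 9731 scaled CPM against 3756 and 3702 (log2 -1.32 ± 0.28, adjusted p = 0.00466) and its partner hspb8 at 1301 and 1377 scaled CPM against 549.7 and 547 (log2 -1.29 ± 0.28, adjusted p = 0.00556). These act in chaperone-assisted turnover of damaged sarcomere proteins. The small heat shock gene hspb6 was higher, at 489.8 and 911 scaled CPM against 2920 and 2831 (log2 2.104 ± 0.34, adjusted p = 0.00103). The most extreme of the group was ahsa1a, the activator of the HSP90 ATPase, with 558 and 649 reads in wild type against 2 and 2 in mutants (log2 -4.90 ± 0.52, adjusted p = 7.63e-05). Of 47 tested cytosolic chaperones 10 were lower, 5 higher and 32 not called (31.9% called, against 23.2% of all genes), with a median of -0.06, and the number higher was 2 without wild-type library 1 and 3 without wild-type library 2. Of the 47, ahsa1a had passed the filter through wild-type libraries alone, and among the 46 others 9 were lower and 5 higher. Reads of hsp90aa1.1 may be shared with its near-identical copy.

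**Figure D3:**
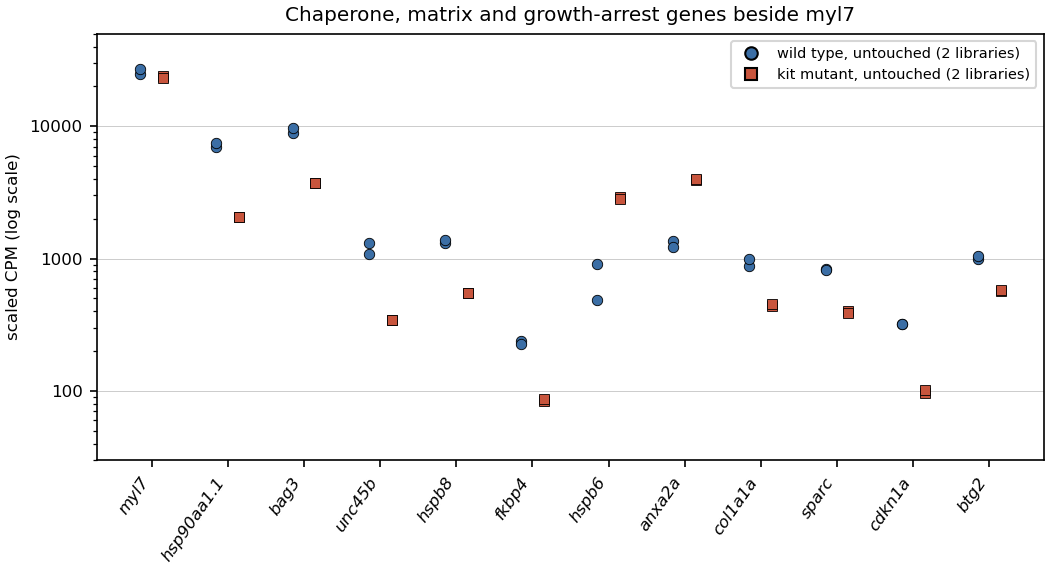
Scaled CPM on a log axis in each untouched library for abundant chaperone, matrix and growth-arrest genes beside the cardiomyocyte gene myl7, with circles for wild type and squares for mutants. The genotypes lie apart for every gene shown, by a small step for myl7 (23010 to 26960 scaled CPM), with hspb6 and anxa2a the 2 called genes that are higher in mutants.

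Sarcomere genes were called at 27.0%, against 23.2% of all genes, and most of the called members were lower. The troponin I gene tnni1d was the exception in size, with 271 and 235 reads in wild type against 5 and 4 in mutants (log2 -3.52 ± 0.54, adjusted p = 0.000773), and its family member tnni1c was at 16.8 and 23.5 scaled CPM against 7.46 and 6.56 (log2 -1.38 ± 0.30, adjusted p = 0.00574). The titin cap gene tcap was higher, at 209 and 225 scaled CPM against 456 and 466 (log2 1.08 ± 0.29, adjusted p = 0.016, lost without wild-type library 1). Of 37 tested 9 were lower and 1 higher. The share lower was 24.3%, where 12.1% of all genes were lower. Of the 37, tnni1d had passed the filter through wild-type libraries alone, and among the 36 others 8 were lower and 1 higher.

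Among cardiac regulators, the natriuretic peptide gene nppc was at 3.12 and 1.99 scaled CPM against 40.9 and 46.6 (log2 3.67 ± 0.34, adjusted p = 4.46e-05), while nppa was at 1131 and 1352 scaled CPM against 2115 and 2118 and was not called (log2 0.78 ± 0.32, adjusted p = 0.0952). The orphan receptor esrrga, a regulator of mitochondrial genes, was at 18.2 and 21.2 scaled CPM against 7.97 and 9.09 (log2 -1.12 ± 0.18, adjusted p = 0.00104), and the limb and heart factor tbx5b at 29.9 and 37.4 scaled CPM against 13.8 and 11.9 (log2 -1.32 ± 0.29, adjusted p = 0.00663). Of 35 tested transcription factors and natriuretic peptides 7 were lower and 4 higher, 3 and 2 without wild-type library 2. Of that list 31.4% were called, against 23.2% of all genes. The potassium channel gene kcnh6a, which repolarises the ventricle in zebrafish, was at 226 and 135 scaled CPM against 698 and 727 (log2 2.02 ± 0.34, adjusted p = 0.00131).

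Most genes of energy metabolism were not called, as was so for all tested genes (23.2% called). The share called was 2.78% for complex I and 6.12% for complexes II to V. Of 36 complex I genes 1 was lower and 0 higher, and of 49 genes of complexes II to V 3 were lower and 0 higher, none of them without wild-type library 2. Without either wild-type library of 2 dpi these counts were 6 and 5. With all 20 libraries kept apart 15 and 9 were lower and 0 higher, where 2270 of all 10134 genes were lower. The medians of the 2 lists were -0.34 and -0.20, where all genes had -0.03. The uncoupling protein gene ucp3 was at 65.1 and 54.3 scaled CPM against 15.9 and 16 (log2 -1.83 ± 0.16, adjusted p = 2.9e-05) and ucp2 at 117 and 75.2 scaled CPM against 261 and 262 (log2 1.47 ± 0.30, adjusted p = 0.00412), so the members of that pair differed in sign. The fatty acid transporter cd36 was at 10.3 and 7.28 scaled CPM against 1.68 and 3.22 (log2 -1.49 ± 0.28, adjusted p = 0.00281). Of 35 fatty acid oxidation genes 7 were lower and 3 higher, 3 and 1 without wild-type library 2. Of the fatty acid oxidation genes 28.6% were called, against 23.2% of all genes. Of 29 glycolysis genes 4 were higher and 3 lower, a share of 24.1%, near that of all genes. Hexokinase hk2, the entry enzyme of glycolysis in muscle, was at 16.9 and 11.5 scaled CPM against 92.4 and 93.8 (log2 2.65 ± 0.38, adjusted p = 0.000501).

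Redox genes moved in both directions. The glutathione transferase gstp1 was at 348 and 339 scaled CPM against 70.8 and 67 (log2 -2.30 ± 0.20, adjusted p = 2.9e-05), while the peroxidase prdx1 was at 3.85 and 3.72 scaled CPM against 27.2 and 25.9 (log2 2.52 ± 0.29, adjusted p = 0.000137) and glutathione reductase, gsr, at 25.8 and 23 scaled CPM against 84.7 and 81.1 (log2 1.73 ± 0.22, adjusted p = 0.000241). Of 49 tested 12 were lower and 7 higher (38.8% called, against 23.2% of all genes). The prostaglandin reductase ptgr1, also a detoxifying enzyme, was among the leading falls at 101 and 89.2 scaled CPM against 9.09 and 9.72 (log2 -3.20 ± 0.30, adjusted p = 4.46e-05).

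Immediate early and clock-linked genes also differed singly. The insulin receptor substrate irs2a was at 2.44 and 1.02 scaled CPM against 35.9 and 34.2 (log2 3.77 ± 0.29, adjusted p = 1.33e-05), the AP-1 repressor jdp2b at 565 and 507 scaled CPM against 210.4 and 218 (log2 -1.32 ± 0.16, adjusted p = 0.000228) and the AP-1 factor fosl2 at 177 and 176 scaled CPM against 406 and 405 (adjusted p = 0.00124). Of 56 tested immediate early genes 11 were lower and 6 higher, and 3 were higher without wild-type library 1. The clock repressor bhlhe40 was at 775 and 924 scaled CPM against 399 and 407 (log2 -1.07 ± 0.16, adjusted p = 0.000692) and the factor nfil3-6 at 720.5 and 873 scaled CPM against 340.3 and 329 (log2 -1.24 ± 0.17, adjusted p = 0.000419), within a clock list of 42 of which 4 were lower and 3 higher, or 5 higher without mutant library 1 and 7 without either mutant library of 14 dpi. The share called was 30.4% of the immediate early list and 16.7% of the clock list, against 23.2% of all genes. The hour at which the hearts were collected is not given in the labels.

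The remaining leading genes belonged to no list. Cochlin, coch, a secreted protein of the inner ear matrix, had 26 and 2 reads in wild type against 820 and 736 in mutants (log2 4.84 ± 0.67, adjusted p = 0.000424). The calcium sensor gene vsnl1a, known from neurons, had 333 and 415 reads against 0 and 6 (log2 -4.14 ± 0.46, adjusted p = 0.000112). This gene and krt97, given last, had passed the filter through wild-type libraries alone. The G protein subunit gene gnb5b was at 38.7 and 55.3 scaled CPM against 3.54 and 2.02 (log2 -3.65 ± 0.44, adjusted p = 0.000177) and the WD repeat gene wdr47b at 18.6 and 17.1 scaled CPM against 1.01 and 1.39 (log2 -3.10 ± 0.29, adjusted p = 4.46e-05). The keratin gene krt97 met the rule through 1 library: it had 29 and 455 reads in wild type against 0 and 0 in mutants (log2 -2.999 ± 1.01, adjusted p = 0.0486), and without wild-type library 2, or without any 1 of several injured libraries, it was not called.

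The untouched gap was then set against the gap in injured hearts, which comes from other libraries. At the 4 injured times together 3971 genes (39.2%) differed between the genotypes, 18.8% higher and 20.4% lower. Of the 2348 genes called in untouched hearts 1883 (80.2%) had the same sign of the mean injured gap and 1139 (48.5%) were also called there in the same direction, which is 28.7% of the injured calls. Same signs at 2, 5, 7 and 14 dpi singly were found for 75.3%, 63.5%, 76.4% and 53.5%, and at all 4 for 26.1%. The untouched gap differed from the mean injured gap by its own test for 1098 genes (10.8%), 571 (5.63%) with a higher and 527 (5.20%) with a lower untouched value, and 646 without wild-type library 2.

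The neutrophil gap of untouched hearts was larger than the mean gap of injured ones. The gap of mpx was 4.34 untouched and -0.42 on average after injury, a difference of 4.76 ± 0.55 (adjusted p = 0.000367). For mmp13a the gaps were 5.81 and 0.31, a difference of 5.49 ± 0.69 (adjusted p = 0.000616). Of the 19 tested neutrophil genes 18 had such a difference, where 5.63% of all tested genes had a higher untouched gap. The untouched gap, in which all 19 were called, is part of this test. Of all 2348 genes called in it 39.7% differed. Of the 19, 3 had passed the filter through untouched mutant libraries alone. The median injured gap of the list was 0.11. The summed level in injured hearts ranged from 452 to 982 scaled CPM in wild type and from 520 to 1334 in mutants, below both untouched mutant libraries. At 2 dpi it was 646 and 452 scaled CPM in wild type against 1323 and 1334 in mutants, which carried another lane label. At 14 dpi both mutant libraries were below both wild-type ones. The macrophage sum was highest in mutants at 2 dpi, at 2192 and 2200 scaled CPM against 868 and 875 in untouched mutants.

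Genes of replication and of ribosome assembly also had untouched gaps unlike the mean injured one. For tk1 the gap was -1.91 untouched and 0.32 after injury (difference -2.23 ± 0.21, adjusted p = 9.41e-05). Of 71 replication genes 40 had a lower untouched gap by this test and 0 a higher one. Over all tested genes 5.20% had a lower one. Of the 71, 12 had passed the filter through untouched wild-type libraries alone. The median injured gap of the list was -0.17. That mean joins unlike times, since the list's median gap was -0.68 at 2 dpi, -0.34 at 5 dpi, -0.05 at 7 dpi and 0.39 at 14 dpi. At 2 dpi the summed level was 1620 and 1792 scaled CPM in wild type against 1066 and 1055 in mutants, which carried another lane label. Of 60 ribosome biogenesis genes 30 had a higher untouched gap and 0 a lower one, with a median injured gap of -0.11. Over all tested genes 5.63% had a higher one. For both lists the untouched gap is part of this test, and of all 2348 genes called in it 39.7% differed.

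**Figure D4:**
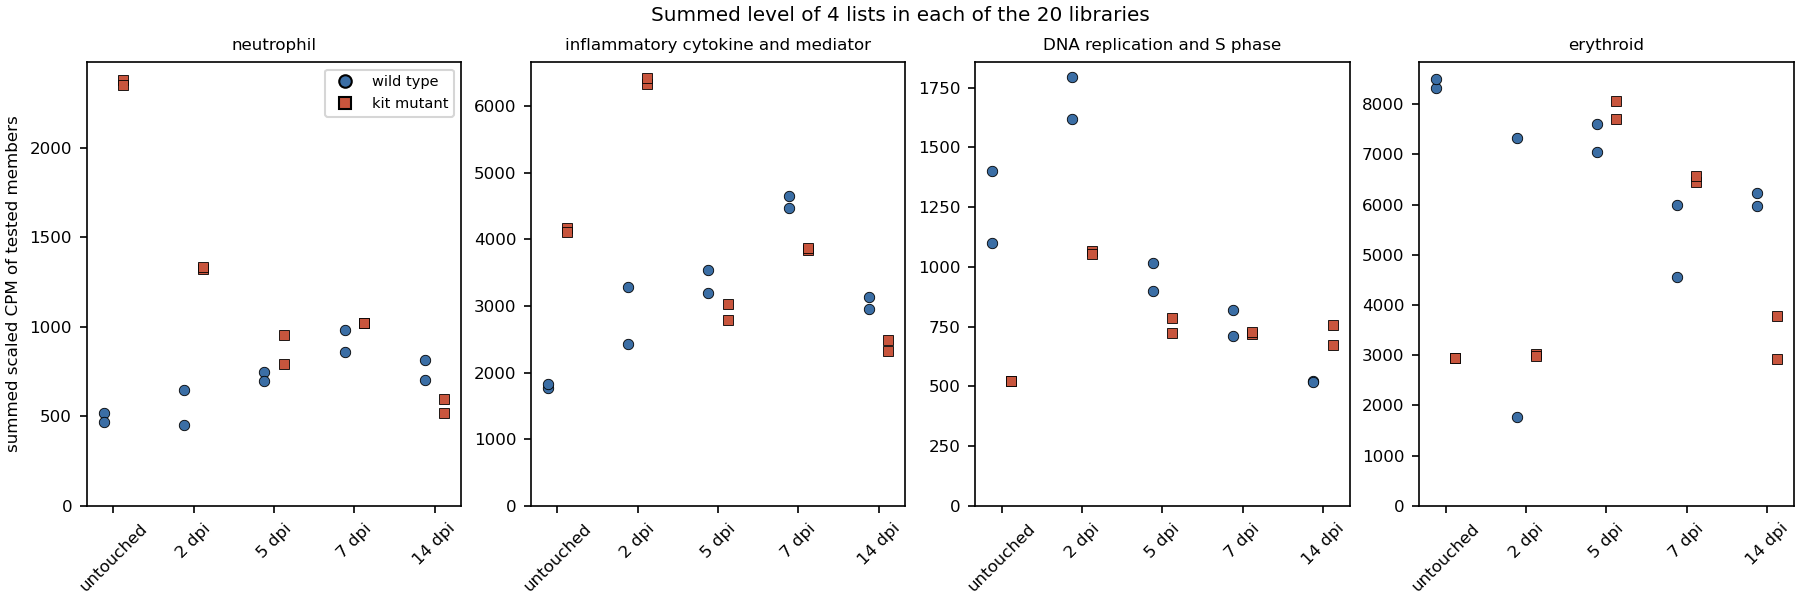
Summed scaled CPM of the tested members of 4 lists in each of the 20 libraries, by time after injury, with circles for wild type and squares for mutants. The untouched mutant libraries hold the highest neutrophil sums of the series (2349 and 2382), and in untouched hearts the replication and erythroid sums are higher in wild type. The mediator sums are highest in mutants at 2 dpi (6338 and 6424, against 4166 and 4112 in untouched mutants).

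A few leading genes also had a large mean gap after injury. The untouched and mean injured gaps were -3.52 and -3.63 for tnni1d, -4.90 and -3.34 for ahsa1a, -3.65 and -2.77 for gnb5b and 4.84 and 3.21 for coch. At 7 dpi the gap of tnni1d was -0.34, with both means low (1.12 scaled CPM in wild type against 0.666), while at 2, 5 and 14 dpi it was -5.35, -4.16 and -4.68. The difference of gaps was not called for any of these (adjusted p = 0.94 for tnni1d, 0.0998 for ahsa1a, 0.276 for gnb5b and 0.179 for coch). For vsnl1a the gaps were -4.14 and -2.29, and these did differ (adjusted p = 0.0353).

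**Figure D5:**
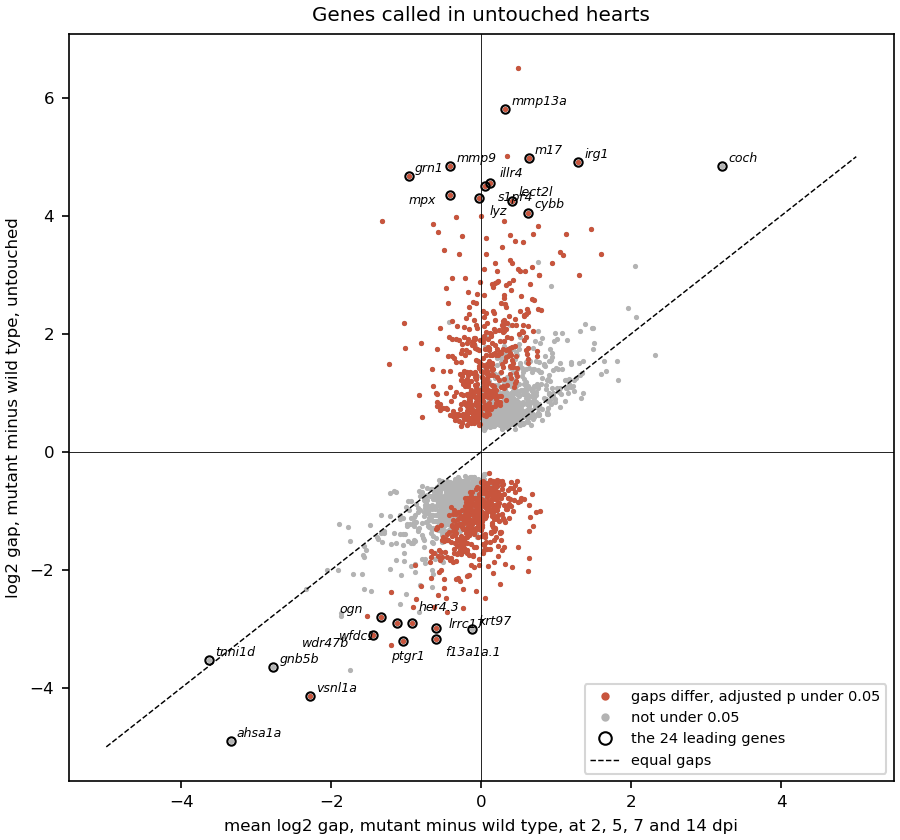
Untouched gap against mean gap at the 4 injured times (log2, mutant minus wild type) for the 2348 genes called in untouched hearts, with genes whose gaps differ in colour and the 24 leading genes circled and named. Neutrophil genes such as mpx and mmp13a lie high on the axis near an injured gap of 0, while tnni1d and gnb5b lie nearest the line of equal gaps among the circled genes, and higher points without a name have clone-type symbols.

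Genes beside the mutated loci were looked at by the gene order of the GRCz12tu assembly, which is not the build of the counts and was used for names and order alone. Windows were chosen after the values were seen, and no test was made. Of the 20 tested genes nearest to kitb 10 were called in untouched hearts (50%), and of the nearest 50, 100 and 200 genes 21, 30 and 57. Of the 20 nearest to kita 3 were called, and of the nearest 50, 100 and 200 genes 7, 27 and 50, where all tested genes with a place gave 23.1%. Of the 24 leading genes ahsa1a and vsnl1a lie on the chromosome of kita and none on that of kitb. How far strain background near the alleles differs between the genotypes was not tested.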

How the data were processed

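Polyadenylated RNA was sequenced in 20 libraries of 10 groups. Per the submitters' processing notes, FastQC, featureCounts and the build danRer10 were used; no aligner or version is given in the sources used here. CPM per gene are what the authors deposited, and 3 lines without gene names were left out. All CPM columns are whole multiples of 1 read (100% within 0.1 read), which gave 14.6 to 31.7 M reads per library. The floor of 3 reads allows for counting error alone. The 11 date-like symbols were kept but not named. Another label field of the 14 dpi libraries names another day, and the day in the titles was used.

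CPM were divided by median-ratio factors. log2(scaled CPM + 1) entered limma 3.58.1 (R 4.3.3, trend, two-sided, Benjamini-Hochberg, threshold 0.05) as 10 group means over 17 units, since 3 mutant pairs with a mean chi-square per gene under 10 (genes with 20 or more reads) were averaged, leaving 7 residual degrees of freedom (12.7 with the prior). Permuting 2 libraries against 2 cannot reach 0.05. The injured gap is the mean of the 4 mutant minus wild-type gaps after injury. The fit was also run on simulated data in which every group had the same spread. That cannot show whether the averaged mutant pairs vary like the other groups. edgeR 4.0.16 and DESeq2 1.42.0 on recovered reads were alternatives, as were other scalings, filters, a pseudocount of 0.25, a replicate block and left-out libraries. Leading genes are the 12 largest rises and 12 largest falls called with pairs averaged and with all 20 libraries apart, without overlap, with a mean of 5 scaled CPM or more and an approved-looking symbol. The kit receptor and ligand genes and, by adjusted p, at most 6 members of a described list, with exceptions, were also named. The members and the 54 lists were chosen with earlier results of these data known.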

Additional observations from a re-analysis of the deposited data

Results flagged for a closer look

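The genotype gap in untouched hearts differed from the mean gap at the 4 injured times for 1098 genes by a test of the difference itself (limma, adjusted p under 0.05), and 19 of the 24 leading genes were among them. Those genes were chosen for large untouched gaps, so their number is a description, and of all 2348 genes called in untouched hearts 931 (39.7%) differed in this way. The untouched minus injured difference, on the log2 scale, was 5.64 for the granulin gene grn1, 5.49 for the collagenase gene mmp13a and 5.25 for the gelatinase gene mmp9. It was 4.76 for mpx, 4.45 for s1pr4, 4.44 for illr4 and 4.34 for the cytokine gene m17. Lysozyme, lyz, had 4.32, lect2l 3.85, irg1 3.62 and the oxidase subunit gene cybb 3.42. All 11 of these were higher in untouched mutants. The mean over 4 times hides rises at 2 dpi, where the gap was 4.75 for irg1 (a mean of 13.1 scaled CPM in wild type against 235 in mutants), 2.68 for cybb and 2.38 for m17. The mutant libraries of 2 dpi carried another lane label than the wild-type ones.

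Among the leading falls the difference was -2.58 for f13a1a.1, -2.38 for lrrc17 and -2.17 for ptgr1. It was -1.98 for her4.3, -1.85 for vsnl1a and -1.78 for wfdc1, and -1.65 for wdr47b and -1.47 for ogn. Of the 115 other genes named here and tested, 82 also differed between untouched and injured gaps by this test. Groups of 2 libraries are too small for a search for single libraries that stand apart.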

How the results depend on the processing

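In untouched hearts 2348 genes were called, 1118 higher and 1230 lower. Keeping all 20 libraries apart gave 4310 (2040 higher, 2270 lower), and the 4 untouched libraries alone, kept apart, gave 4539 (2369 and 2170). For the difference between untouched and injured gaps, 1098 genes in the report (571 and 527), the 20 libraries apart gave 2971 (1442 and 1529). With the replicate block the counts were 4197 (1983 and 2214) and 2856 (1377 and 1479), against 4310 and 2971 for the same libraries without the block. The numbers do not pair the libraries: over 45 pairs of groups the correlation of replicate differences ran from -0.309 to 0.172, with a median of -0.01. With 1 library left out the untouched counts ran from 1574 to 2599, from 759 to 1268 higher and from 815 to 1333 lower, and those of the difference of gaps from 646 to 1368, from 339 to 725 higher and from 307 to 643 lower, with every lowest value without wild-type library 2. Left-out injured libraries were chosen after seeing the data. Under the other settings (quantile normalization, CPM without factors, a pseudocount of 0.25, a filter of CPM 5 or none, edgeR, DESeq2, only untouched libraries with the mutant pair averaged, and without lane 7) the untouched count stayed between 2022 and 2521. No called gene named here changed direction. Of 139 named genes tested, 15 lost their call without wild-type library 2 and 8 without wild-type library 1. The averaged mutant pair is assumed to vary like the other groups. Leaving out either of its libraries keeps the near-identical partner, so no setting tests whether a result is particular to that pair. Levels of a few reads, as for kitb, limit what can be read at this depth.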

Other observations

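Markers of tissues outside the heart were mostly below the filter. Of 14 exocrine pancreas genes 12 were below it and 1 of the others was higher, while their summed level was lower, at 192 and 179 scaled CPM in wild type against 92.8 and 96.6 in mutants. Of 21 liver genes 16 were below the filter. Of the 5 tested 3 were higher, 2 of which had passed through mutant libraries alone, and 1 was lower, with sums of 969 and 790 scaled CPM in wild type against 1060 and 1069 in mutants. The lower one, transferrin, tfa, stood at 142.7 and 111.9 against 41.6 and 42.7. Of 8 thrombocyte genes 2 were higher and 1 lower, and their summed level was 434 and 361 scaled CPM in wild type against 240 and 233 in mutants. The adhesion receptor gene selp, higher, stood at 1.59 and 1.22 against 20.3 and 19.7. The lower one, f13a1a.1, at 220 and 174 against 20.9 and 20.7, made up a large part of the wild-type sums. The median log2 difference of the 8 genes was 0.39, so the lower sum does not describe the list.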
